A study of Homo sapiens with 24 samples.

Results

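AC16 cells, an immortalized human line derived in part from adult ventricular cardiomyocytes, were exposed to 0.5 µM digoxin and compared with cells given vehicle, both collected at T4, which the sample labels and the growth protocol place 4 h after treatment. The arrays were chosen by their titles: 3 of 0.5 µM digoxin at T4 and 3 of vehicle at T4, so 6 of the 24 arrays of the series. All cells, the vehicle cells included, had first been synchronized with 100 nM dexamethasone for 2 h and washed. Other groups used beside them, each with 3 arrays, are 5 µM digoxin at T4, 0.5 µM digoxin at T20, vehicle at T20 and untreated cells at T0. For the T20 arrays the labels give 4 h after treatment while the protocol gives 20 h, so the length of that exposure is not settled. The free-text description of the T4 digoxin arrays also calls the cells untreated, although their titles and treatment labels name the dose. RNA was read on Human Gene 2.0 ST arrays, and a gene's level is the median of the probe sets, each reading about 1 exon, that carry only its symbol. As the deposited values ran up to 19.93, which no label explains, differences are not turned into linear folds. The labels do not say whether replicates came from separate cultures, so p-values measure the spread between these arrays, which may be technical.

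Digoxin is a cardiac glycoside, which binds the sodium potassium pump of the plasma membrane and slows it. Sodium then builds up in the cell and potassium falls, and in heart muscle the sodium calcium exchanger passes the change on to calcium. Changes of these ions act on signalling kinases and on early response genes, whose transcripts turn over fast. Dexamethasone activates the glucocorticoid receptor, a transcription factor that also resets the circadian clock, the feedback loop in which PER and CRY proteins repress the activators CLOCK and BMAL1 and in which the REV-ERB receptors (NR1D1, NR1D2) repress BMAL1.

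The label of the cells was set against marker genes. Of 22 cardiomyocyte markers on the array, 18 lay below the filter on low values, among them MYH6, MYH7, TNNT2 and TTN, with group means of 3.03 to 5.35 in 0.5 µM cells and 3.32 to 5.46 in vehicle cells, where the filter stood at 6.02. GATA4, a cardiac transcription factor, was above it, with 8.72, 8.41 and 8.39 in 0.5 µM cells, against 7.76, 8.74 and 8.85 in vehicle cells. Of 10 fibroblast markers 9 were above it, and COL1A1 read 15.44, 15.41 and 15.42 in 0.5 µM cells, against 15.56, 15.56 and 15.60 in vehicle cells. Contractile genes such as MYH6, MYH7, TNNT2 and TTN were thus near the floor of the array in both groups, but 4 of the 22 markers reached the filter. By median polish only 2 of the 22 reached it, GATA4 and the troponin gene TNNC1, which had a difference of -0.14 (adjusted p = 0.809). Of the endothelial markers 1 of 6, of the smooth muscle markers 4 of 6 and of the leukocyte markers 0 of 4 were above the filter. No marker gene of these lists passed between 0.5 µM digoxin and vehicle by the median of probe sets, while by median polish COL1A1 (-0.46, adjusted p = 0.00153) and COL1A2 (-0.42, adjusted p = 0.0295) were lower and CNN1, a smooth muscle marker, was higher (0.56, adjusted p = 0.0117). The part of these markers in other results was not tested. In RNA of whole cultures, fewer cells of a type and less RNA per cell cannot be told apart.

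Of 11911 genes tested, 294 (2.47%) passed an adjusted p of 0.05 between 0.5 µM digoxin and vehicle at T4, 165 higher (1.39%) and 129 lower (1.08%). The count depended on the processing: 1148 passed by median polish of probe sets (245 of them shared), 966 by their mean and 99 in a fit of only the groups compared. The change was at least 1 on the log2 scale for 95 of the higher and 74 of the lower genes. Among the 15 leading rises were the early transcription factor EGR1, the cytokines IL11, CXCL8 and IL24, the kinase SGK1 and the IkB protein NFKBIZ. ZNF511, the largest of the 15, and MAX and RHOQ had 0.19, 0.19 and 0.03 by median polish and did not pass by it. DUSP1, an inhibitor of MAP kinases, also rose but was not among the 15. EIF5, a factor of translation initiation, and ARRDC3, an alpha-arrestin, had the largest falls among the named genes. Scaled to 24 spiked-in poly-A controls, which read 0.147 higher on the 0.5 µM arrays as deposited (11.55, 11.94 and 11.72, against 11.52, 11.67 and 11.58 for vehicle), 192 genes passed, 69 higher and 123 lower, and the median of all genes moved to -0.11, against 0.02 before, so the sign of differences as small as this shift depends on the scaling. The calls of ANKRD1, CCN2, CLCF1, CPT2, DUSP10, E2F1, EGFL8, IER3, IRAK2, KLF9, MAFK, PNRC1, SC5D, SRF, SRSF5, TGFB2 and TNFAIP3 were lost under that scaling, with unchanged direction. The count was lower with any of the 6 arrays left out, at 194, 169 and 178 without 0.5 µM replicate 1, 2 and 3, and at 163, 175 and 188 without vehicle replicate 1, 2 and 3.

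**Figure D1:**
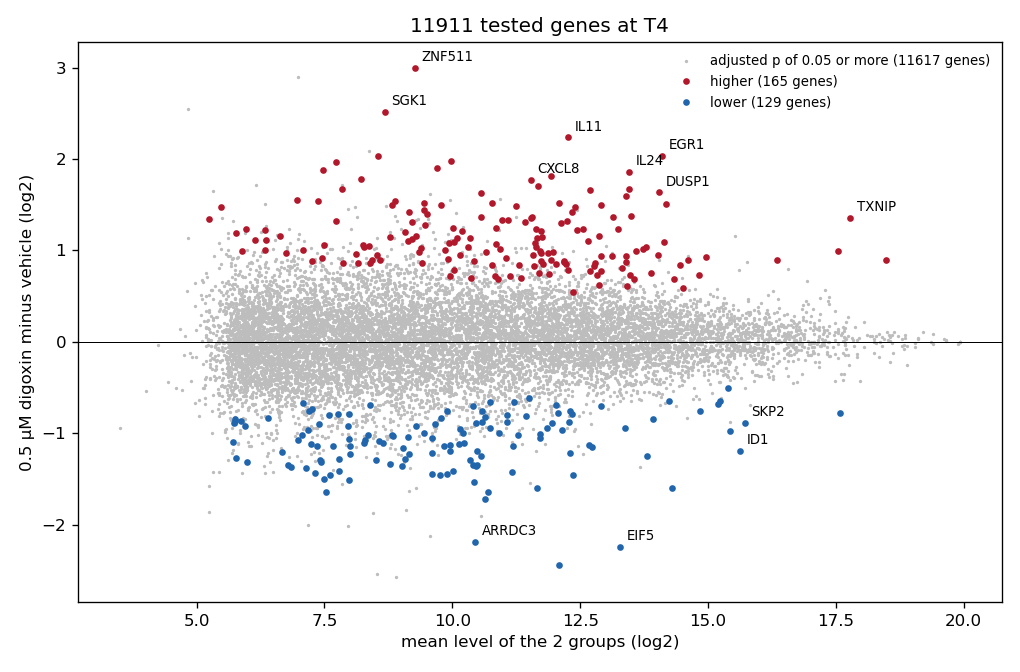
Each point is 1 of the 11911 tested genes, with the mean log2 level of both groups on the horizontal axis and the log2 difference, 0.5 µM digoxin minus vehicle, on the vertical axis. The 165 red genes passed as higher and the 129 blue genes as lower, and both kinds lie over most of the range of levels.

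Of the genes that rose, 158 of 165 (95.8%) were protein coding, against 113 of 129 (87.6%) of those that fell and 89.5% of the genes that did not pass. A median of 90.9% of the probe sets of a gene that rose and 91.7% of those of a gene that fell had the sign of the gene's own difference, against 63.6% for a gene that did not pass. These signs, the overlap of groups and the levels come from the values that were tested, and are given as a description. Groups did not overlap in 163 of the 165 and in all 129, where 2565 of all tested genes (21.5%) had groups without overlap. Genes that rose had a median level of 11.73 in 0.5 µM cells and 10.64 in vehicle cells, and those that fell 9.35 in 0.5 µM cells and 10.51 in vehicle cells.

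Promoters of 7 of the named genes show what lies upstream of the transcripts that moved: 5 that rose and, for contrast, the 2 with the largest falls. The 250 bases upstream of each RefSeq gene start are given 5′ to 3′ on the strand of the gene, from RefSeq on GRCh38.p14, with matches to the motifs searched in capitals. They lie at chr5:138465229-138465478 on the plus strand for EGR1, chr19:55370464-55370713 on the minus strand for IL11, chr4:73740319-73740568 on the plus strand for CXCL8, chr3:101827740-101827989 on the plus strand for NFKBIZ, chr5:172771196-172771445 on the minus strand for DUSP1, chr14:103333987-103334236 on the plus strand for EIF5 and chr5:91383318-91383567 on the minus strand for ARRDC3.
EGR1: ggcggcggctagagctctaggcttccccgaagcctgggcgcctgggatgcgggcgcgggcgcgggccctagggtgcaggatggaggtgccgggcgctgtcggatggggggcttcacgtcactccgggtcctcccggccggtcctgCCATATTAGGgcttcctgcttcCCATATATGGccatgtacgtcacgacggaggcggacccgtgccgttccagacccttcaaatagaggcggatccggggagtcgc
IL11: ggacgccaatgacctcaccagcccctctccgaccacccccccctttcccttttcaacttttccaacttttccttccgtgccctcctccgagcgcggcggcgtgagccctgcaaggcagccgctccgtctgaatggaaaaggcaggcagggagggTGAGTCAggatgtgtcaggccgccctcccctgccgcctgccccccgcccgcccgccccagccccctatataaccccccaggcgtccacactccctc
CXCL8: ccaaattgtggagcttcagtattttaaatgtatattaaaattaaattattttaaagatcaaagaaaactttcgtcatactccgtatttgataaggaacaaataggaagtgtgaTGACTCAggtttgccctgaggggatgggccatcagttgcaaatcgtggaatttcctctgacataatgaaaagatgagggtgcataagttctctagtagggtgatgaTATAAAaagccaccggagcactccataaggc
NFKBIZ: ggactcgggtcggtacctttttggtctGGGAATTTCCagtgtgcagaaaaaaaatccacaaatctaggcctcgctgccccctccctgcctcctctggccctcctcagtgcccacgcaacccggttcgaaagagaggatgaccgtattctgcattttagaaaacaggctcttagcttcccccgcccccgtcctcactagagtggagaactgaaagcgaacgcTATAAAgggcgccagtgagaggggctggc
DUSP1: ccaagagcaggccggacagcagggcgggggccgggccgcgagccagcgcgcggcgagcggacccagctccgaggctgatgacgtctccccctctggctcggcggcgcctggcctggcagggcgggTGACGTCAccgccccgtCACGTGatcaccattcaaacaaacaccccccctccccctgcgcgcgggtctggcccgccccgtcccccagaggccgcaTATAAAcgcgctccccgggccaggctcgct
EIF5: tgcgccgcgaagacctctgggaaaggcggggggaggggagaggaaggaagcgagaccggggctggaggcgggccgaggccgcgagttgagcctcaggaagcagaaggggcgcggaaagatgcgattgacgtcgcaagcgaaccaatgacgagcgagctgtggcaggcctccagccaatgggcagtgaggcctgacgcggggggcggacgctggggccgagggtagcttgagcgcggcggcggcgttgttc
ARRDC3: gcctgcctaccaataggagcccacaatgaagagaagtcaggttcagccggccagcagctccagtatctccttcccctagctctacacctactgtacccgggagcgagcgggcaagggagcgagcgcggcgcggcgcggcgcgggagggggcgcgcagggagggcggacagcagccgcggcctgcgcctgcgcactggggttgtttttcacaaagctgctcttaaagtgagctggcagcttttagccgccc

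The motifs, read on both strands, were the AP-1 element (TGANTCA), the cAMP response element (TGACGTCA), the E-box (CACGTG), the TATA box (TATAAA), the glucocorticoid response element (GNACA and TGTNC, 3 bases apart), the CArG box and the kappa B element. EGR1 held a pair of CArG boxes, the element that serum response factor reads, at bases -105 to -96 and -83 to -74 from the start. IL11 held an AP-1 element at -96 to -90, and CXCL8 held one at -137 to -131 and a TATA box at -31 to -26. NFKBIZ held a kappa B element at -223 to -214 and a TATA box at -29 to -24. DUSP1 held a cAMP response element at -125 to -118, an E-box at -108 to -103 and a TATA box at -30 to -25, while EIF5 and ARRDC3 held none of these letters. The promoter of SGK1, which rose, was also searched but is not printed. It held only a TATA box on the opposite strand, at -96 to -91, and none of the other motifs. Among called genes with a promoter in the table (136 of 165 higher, 101 of 129 lower), the AP-1 element was found in 7.35% of the higher and 1.98% of the lower promoters, in 3.78% of those of all tested genes and in 6.6% of all 27305 promoters. The cAMP response element was found in 6.62% of the higher, 3.96% of the lower, 2.96% of the tested and 1.77% of all promoters, and the TATA box in 12.5%, 11.9%, 5.6% and 11.1% of the same sets. The E-box was found in 9.56%, 15.8%, 9.14% and 6.49% of them, the kappa B element in 9.56%, 11.9%, 11.4% and 9.57%, the CArG box in 2.21%, 0.99%, 0.938% and 1.14% and the glucocorticoid response element in 0.735%, 0.99%, 0.216% and 0.33%. These shares describe letters and were not tested.

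Among early response genes, 3 of 9 tested members of the EGR and IER list rose and none fell, with a list median of 0.69 against 0.02 over all tested genes. EGR1, a zinc finger activator induced within minutes of many stimuli, read 15.24, 14.85 and 15.27 in 0.5 µM cells, against 12.70, 13.27 and 13.29 in vehicle cells. All 3 digoxin arrays were well above the highest vehicle array. The difference was 2.03 ± 0.18 (log2, standard error), with an adjusted p of 6.118e-06, the smallest of the comparison among the genes named here. IER3, an early gene that acts on survival signalling, rose by 0.90 ± 0.19, and SRF, the serum response factor that binds CArG boxes, by 1.11 ± 0.27. SRF lost its call without vehicle replicate 1 or 2 or 0.5 µM replicate 2 or 3 (largest adjusted p 0.144).

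Subunits of AP-1, the dimer of JUN and FOS proteins and their relatives, rose in 3 of 12 cases and fell in none, with a median of 0.65. JUNB read 11.71, 11.69 and 11.52 in 0.5 µM cells, against 10.04, 10.51 and 10.38 in vehicle cells, and JUND 12.22, 12.32 and 12.22 in 0.5 µM cells, against 10.83, 10.90 and 11.33 in vehicle cells. Both were higher on every digoxin array than on any vehicle array, by 1.33 ± 0.25 for JUNB and 1.23 ± 0.19 for JUND. MAFK, a small MAF protein that pairs with other basic leucine zipper factors, rose by 1.01 ± 0.26 but lost its call with any array but 0.5 µM replicate 1 left out (adjusted p up to 0.224). When probe sets were combined by median polish, 5 AP-1 members rose.

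Inhibitors that MAP kinases induce against themselves rose in 4 of 15 cases and fell in none, with a median of 0.51. DUSP1, a phosphatase of p38, JNK and ERK, read 15.41, 14.50 and 14.68 in 0.5 µM cells, against 13.09, 13.13 and 13.46 in vehicle cells. The groups did not overlap, and the difference was 1.63 ± 0.22 (adjusted p = 0.00026). SPRY2, a Sprouty inhibitor of growth factor receptor signalling, rose by 1.54 ± 0.23 and DUSP16, a JNK phosphatase, by 1.31 ± 0.25. DUSP10, which acts on p38 and JNK, rose by 0.86 ± 0.21 and lost its call with any array but vehicle replicate 2 left out (adjusted p up to 0.13). By median polish 6 members rose and 1 fell. RGCC, a regulator of cell cycle kinases, was the fourth of the leading rises, with 9.49, 9.64 and 9.56 in 0.5 µM cells, against 7.23, 7.55 and 7.81 in vehicle cells. Its difference was 2.04 ± 0.22 (adjusted p = 3.805e-05), and its digoxin arrays lay close together above all vehicle arrays.

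Known targets of the glucocorticoid receptor had the largest share of passing genes among the lists, 7 of 17 tested (6 higher, 1 lower), with a median of 0.55. Over all tested genes 2.47% passed. As lists and members were chosen with earlier results of these data known, this rank is a description and was not tested. SGK1, a kinase that raises sodium transport and is induced by glucocorticoids and by cell shrinkage, read 9.80, 9.44 and 10.56 in 0.5 µM cells, against 7.14, 7.14 and 7.98 in vehicle cells, a difference of 2.51 ± 0.48 (adjusted p = 0.0055). SLC19A2, a thiamine transporter, read 11.33, 11.02 and 10.53 in 0.5 µM cells, against 8.74, 8.83 and 9.36 in vehicle cells, a difference of 1.98 ± 0.28. In both genes the lowest digoxin array was above the highest vehicle array. CEBPD, a transcription factor of the acute phase, rose by 1.30 ± 0.20, BCL6, a repressor, by 1.37 ± 0.29, and KLF9, a Kruppel-like factor, by 1.16 ± 0.26. GADD45B, a stress sensor, fell by 1.46 on the log2 scale (standard error 0.29), with 11.62, 11.95 and 11.30 in 0.5 µM cells, against 12.36, 13.54 and 13.35 in vehicle cells. BCL6 lost its call without vehicle replicate 1 or 2 or 0.5 µM replicate 2 or 3, KLF9 without vehicle replicate 1 or 3 or 0.5 µM replicate 2, and GADD45B without vehicle replicate 2 or 0.5 µM replicate 3, with adjusted p up to 0.0587, 0.0852 and 0.061. By median polish 10 members rose and 1 fell.

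Since every culture had received dexamethasone before T0, the level at T0 is given beside these genes. DUSP1 averaged 17.68 at T0, 13.23 with vehicle, 14.86 with 0.5 µM and 15.60 with 5 µM at T4. SLC19A2 averaged 13.23 at T0, 8.98 with vehicle, 10.96 with 0.5 µM and 11.75 with 5 µM, and KLF9 12.83, 8.72, 9.87 and 10.51 in the same order. CEBPD averaged 12.92, 11.47, 12.77 and 13.47 in that order, and BCL6 12.53, 10.87, 12.24 and 12.49. For these 5 of the 7 passing members the 0.5 µM cells lay between the vehicle cells and the T0 cells. SGK1 did not follow that order, with 8.99 at T0, 7.42 with vehicle and 9.93 with 0.5 µM, nor did GADD45B, with 15.60 at T0, 13.08 with vehicle and 11.62 with 0.5 µM. Outside the list, IL11 averaged 11.56 at T0, 11.15 with vehicle, 13.39 with 0.5 µM and 13.57 with 5 µM. Among members that did not pass, NFKBIA, the inhibitor of NF-kB, had a difference of 1.44 ± 0.40 (adjusted p = 0.0595), and FKBP5, a chaperone of the receptor and one of its strongest targets, one of -0.22 ± 0.21 (adjusted p = 0.713). NR3C1, the receptor itself, had 0.46 ± 0.13 (adjusted p = 0.0812). By median polish NFKBIA (0.56, adjusted p = 0.0013) and NR3C1 (0.36, adjusted p = 0.0085) passed, while FKBP5 did not (0.11, adjusted p = 0.519).

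Among cytokines, IL11, a ligand of the IL-6 family that signals through gp130, read 13.55, 13.13 and 13.48 in 0.5 µM cells, against 11.07, 11.30 and 11.07 in vehicle cells. The groups were far apart, and the difference was 2.24 ± 0.28 (adjusted p = 0.0001). CLCF1, another ligand of the family, rose by 1.04 ± 0.20. These were the 2 of 13 tested family members that rose, and none fell. IL6 did not pass, with 8.54, 8.79 and 8.91 in 0.5 µM cells, against 9.00, 8.64 and 8.82 in vehicle cells, and a difference of -0.07 ± 0.19. By median polish its difference was 0.55 ± 0.15 (adjusted p = 0.0217), so both its sign and its call depend on how probe sets are combined. Its receptor chain IL6ST had 0.16 ± 0.15 and the IL-11 receptor IL11RA 0.13 ± 0.28, so neither passed. By median polish 5 members rose, IL6 and the receptor chains LIFR and OSMR beside IL11 and CLCF1.

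IL24, a cytokine of the IL-10 family kept here with the IL-1 group, read 14.40, 14.26 and 14.50 in 0.5 µM cells, against 12.59, 12.53 and 12.46 in vehicle cells, a difference of 1.86 ± 0.19 (adjusted p = 2.184e-05). Both groups were tight and far apart. IRAK2, a kinase of the IL-1 receptor pathway, rose by 1.00 ± 0.26 and lost its call with any array but vehicle replicate 1 left out (adjusted p up to 0.166). These were 2 of 9 tested genes of that group, and none fell.

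Of 9 chemokine genes tested, 1 rose and 1 fell by the median of probe sets. By median polish 2 rose and 1 fell, and CCL20 had 1.01 (adjusted p = 0.0035). CXCL8, which draws neutrophils, read 12.52, 12.26 and 12.47 in 0.5 µM cells, against 10.87, 11.00 and 10.06 in vehicle cells, a difference of 1.77 ± 0.33 (adjusted p = 0.0048). The 3 digoxin arrays were close together, while vehicle replicate 3 was below the other 2 of its group. CXCL12, the ligand of CXCR4, read 12.56, 13.22 and 12.92 in 0.5 µM cells, against 13.71, 13.86 and 13.96 in vehicle cells, and fell by 0.95 on the log2 scale (standard error 0.23). It lost its call with any array but 0.5 µM replicate 2 left out (adjusted p up to 0.159).

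In the NF-kB list 3 of 24 tested genes rose and none fell, and the list median of 0.02 was that of all genes. NFKBIZ, an atypical IkB protein that works in the nucleus on a subset of NF-kB target genes, read 10.84, 10.66 and 10.46 in 0.5 µM cells, against 8.22, 9.40 and 8.64 in vehicle cells. The groups did not overlap and the difference was 1.90 ± 0.29 (adjusted p = 0.00084). PTGS2, the inducible cyclooxygenase, rose by 1.19 ± 0.21, at low levels of 6.37 in 0.5 µM cells and 5.18 in vehicle cells. TNFAIP3, the A20 ubiquitin editor that restrains the pathway, rose by 1.23 ± 0.27 but lost its call without vehicle replicate 2 or 0.5 µM replicate 1 or 3 (adjusted p up to 0.0842). By median polish 7 members rose. CD55, a surface protein that protects cells from complement, read 12.82, 12.60 and 13.08 in 0.5 µM cells, against 11.01, 11.01 and 11.02 in vehicle cells, a difference of 1.82 ± 0.20. The vehicle arrays were nearly identical there, and all digoxin arrays lay above them.

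**Figure D2:**
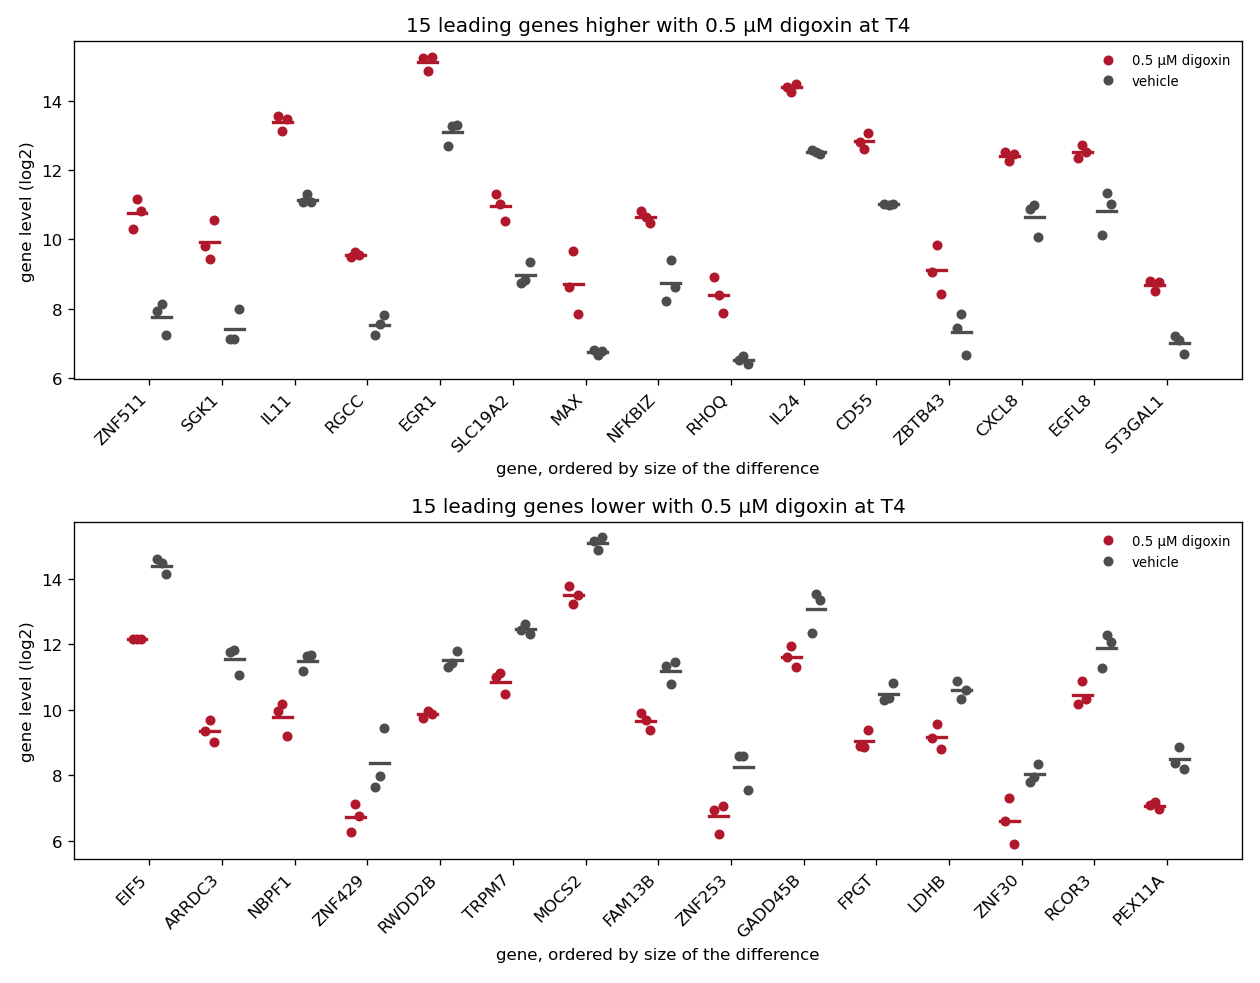
Each column is a gene, with the log2 level on the vertical axis, the 3 arrays of 0.5 µM digoxin in red on the left, the 3 vehicle arrays in grey on the right and bars at the means. In the upper panel all red points lie above the grey ones (IL11 at 13.13 to 13.55 against 11.07 to 11.30), and in the lower panel all lie below (EIF5 at 12.15 to 12.17 against 14.15 to 14.60).

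Of the clock genes, 20 were tested, 2 rose and 1 fell. CRY1, a repressor of CLOCK and BMAL1, read 10.79, 11.01 and 10.51 in 0.5 µM cells, against 12.04, 11.69 and 11.66 in vehicle cells, and fell by 1.02 on the log2 scale (standard error 0.21, adjusted p = 0.0102). CRY2, its paralog, read 6.69, 7.05 and 6.76 in 0.5 µM cells, against 5.66, 5.88 and 5.96 in vehicle cells, a difference of 1.00 ± 0.18 (adjusted p = 0.0029). The 2 cryptochromes thus moved in opposite directions by the median of their probe sets. CRY1 lost its call without vehicle replicate 1 or 0.5 µM replicate 3 (adjusted p up to 0.0672) and by the mean of its probe sets (-0.52, adjusted p = 0.14). For CRY2 the result rested on how probe sets were combined, since median polish gave 0.19 ± 0.13 (adjusted p = 0.409).

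NR1D1, the REV-ERB alpha repressor of BMAL1, read 5.81, 6.13 and 5.79 in 0.5 µM cells, against 4.65, 4.56 and 4.50 in vehicle cells, a difference of 1.34 ± 0.27 (adjusted p = 0.0086). The vehicle arrays lay well below the filter of 6.02, within the range of the cardiomyocyte markers above, and the digoxin arrays around it, so the size of the difference is uncertain. The call was lost by median polish (0.77 ± 0.26, adjusted p = 0.0685) and without 0.5 µM replicate 2 (adjusted p = 0.052). PER1, a repressor that both glucocorticoids and calcium signals induce, read 8.76, 8.42 and 8.74 in 0.5 µM cells, against 7.31, 7.61 and 7.29 in vehicle cells. Its groups did not overlap, but the difference of 1.24 ± 0.36 did not pass (adjusted p = 0.082), while by median polish 1.46 did (adjusted p = 0.00016). NR1D2 (0.53 ± 0.24), PER3 (0.75 ± 0.37) and CSNK1E, a kinase of PER proteins (0.44 ± 0.42), also passed by median polish and not by the median. BMAL1 had 7.90, 7.96 and 8.21 in 0.5 µM cells, against 8.33, 9.35 and 9.02 in vehicle cells, a difference of -0.87 ± 0.28 (adjusted p = 0.128). PER2 had 0.59 ± 0.45, CLOCK -0.28 ± 0.16 and DBP, an output factor, 0.11 ± 0.30, and the other 9 tested clock genes had adjusted p of 0.223 or more.

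**Figure D3:**
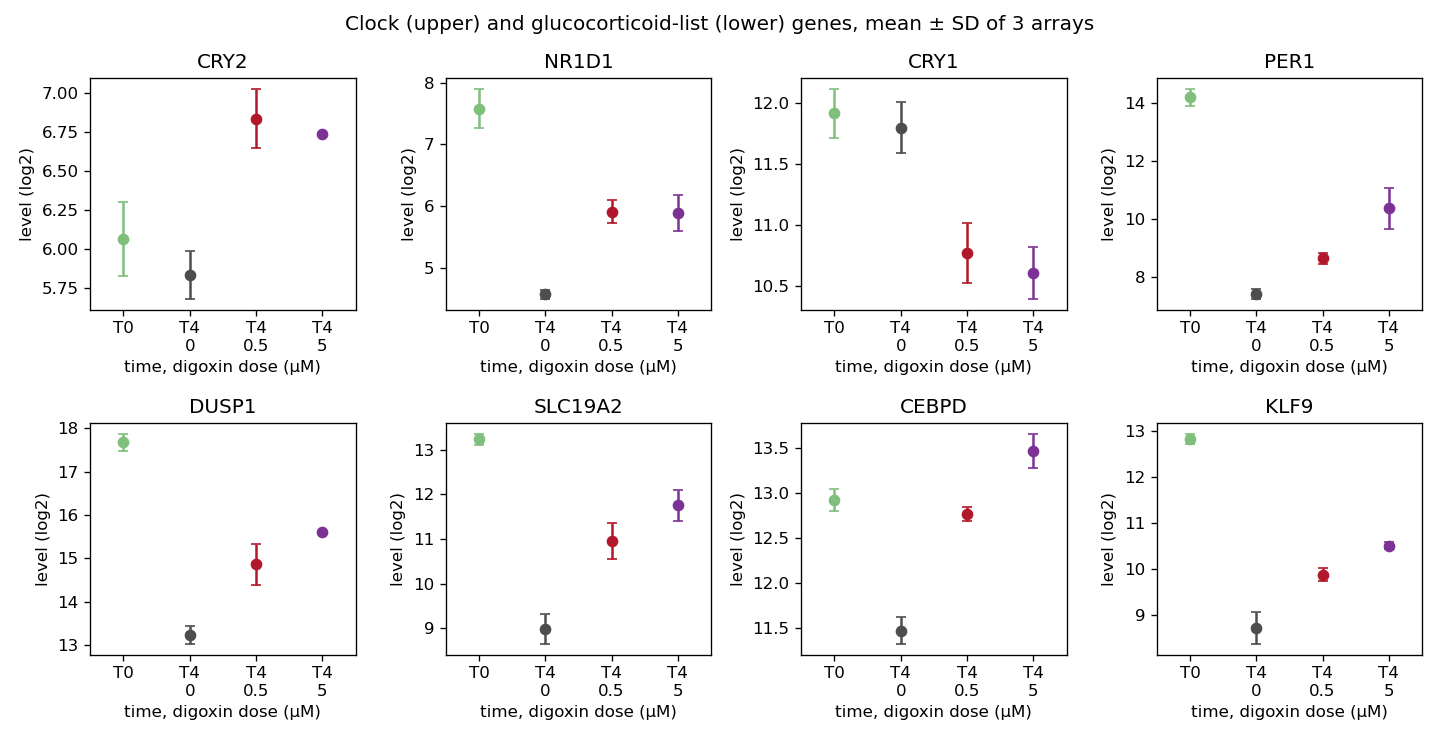
Points are means of 3 arrays and bars are SD, on a log2 axis that differs between panels, for untreated cells at T0 and for 0 (vehicle), 0.5 and 5 µM digoxin at T4. PER1 and DUSP1 were highest at T0, with 0.5 µM cells above vehicle cells at T4, while CRY1 was lower in 0.5 µM cells (10.77) than in vehicle cells (11.80).

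None of the tested genes of the pump or of sodium and calcium transport passed by the median of probe sets. Of 13 sodium pump genes listed, 8 matched a probe set with only their symbol. Of these FXYD5, ATP1B3 and ATP1B1 were above the filter, and none passed the test. No alpha subunit of the pump was among the genes tested, so the transcripts of these subunits were not assessed. ATP1B1, the common beta subunit, read 11.35, 10.07 and 10.80 in 0.5 µM cells, against 10.91, 10.77 and 10.68 in vehicle cells, a difference of -0.05 ± 0.29. ATP1B3 had -0.12 ± 0.49 by the median but 0.45 by the mean of its probe sets (adjusted p = 0.0309). By median polish ATP1B1 had 0.18 (adjusted p = 0.163) and ATP1B3 0.20 (adjusted p = 0.175), so the direction of neither is settled. Of 14 tested genes of sodium and calcium transport none passed, and SLC12A2, the sodium potassium chloride cotransporter, had 0.42 ± 0.17 (adjusted p = 0.248). Of 7 tested genes of the response to osmotic stress 2 rose, SGK1 and SLC38A2, a sodium-coupled carrier of neutral amino acids. SLC38A2 read 18.96, 19.01 and 18.84 in 0.5 µM cells, against 17.91, 18.00 and 18.18 in vehicle cells, a difference of 0.90 ± 0.15 without overlap. None of 13 calcineurin and NFAT genes passed, and RCAN1, a target and inhibitor of calcineurin, had 0.88 ± 0.28 (adjusted p = 0.108). None of 9 CREB targets passed either, although the list median was 0.47. By median polish 4 osmotic stress genes, 1 gene of sodium and calcium transport, 2 of calcineurin and NFAT and 1 CREB target rose, and none of these lists had a fall.

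Of metabolic genes, 12% of the sterol list, 6.25% of fatty acid oxidation and 4% of glycolysis and hypoxia passed by the median of probe sets. The share over all tested genes was 2.47%. SLC2A3 did not pass by the median but rose by 1.24 by median polish (adjusted p = 1.807e-05). In the list of sterol synthesis and uptake 3 of 25 tested genes rose and none fell, with a median of 0.34, and by median polish 5 rose and none fell. INSIG1, which holds SREBP in the endoplasmic reticulum, read 14.18, 14.15 and 14.27 in 0.5 µM cells, against 12.57, 13.31 and 11.93 in vehicle cells. The digoxin arrays were close together and the vehicle arrays spread widely below them, with a difference of 1.60 ± 0.28 (adjusted p = 0.0026). STARD4, a carrier of cholesterol, rose by 1.23 ± 0.16, and SC5D, a desaturase of cholesterol synthesis, by 1.07 ± 0.25, but SC5D had 0.27 by median polish (adjusted p = 0.175) and up to 0.142 with an array left out (vehicle replicate 1 or 3, 0.5 µM replicate 1 or 2). CPT2, which imports fatty acids into mitochondria, fell by 0.79 on the log2 scale and ADM, the vasodilator adrenomedullin, by 0.80, but ADM lost its call with each of the 6 arrays left out in turn (adjusted p up to 0.152) and CPT2 with any vehicle array or 0.5 µM replicate 1 left out (adjusted p up to 0.123). LDHB, a subunit of lactate dehydrogenase, fell by 1.44 by the median, lost its call without vehicle replicate 1 or 0.5 µM replicate 3 (adjusted p up to 0.0725) and had -0.12 by median polish (adjusted p = 0.348).

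TXNIP and ARRDC3, both alpha-arrestins that act on glucose uptake or receptors, moved in opposite directions. TXNIP, among the brightest genes that passed, read 18.41, 18.57 and 18.41 in 0.5 µM cells, against 17.13, 17.08 and 17.10 in vehicle cells, a difference of 1.36 ± 0.15 (adjusted p = 3.805e-05). ARRDC3 read 9.35, 9.68 and 9.02 in 0.5 µM cells, against 11.75, 11.81 and 11.05 in vehicle cells, and fell by 2.19 on the log2 scale (standard error 0.30, adjusted p = 0.00024). Its digoxin arrays were all below the lowest vehicle array. At T0 ARRDC3 averaged 8.22 and TXNIP 17.22. The other 6 tested genes of this list did not pass by the median of probe sets, but by median polish ARRDC4, another alpha-arrestin, rose by 1.29 (adjusted p = 2.992e-06), beside 1.24 for TXNIP.

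EIF5, the GTPase-activating factor of translation initiation, had the largest named fall, with 12.16, 12.17 and 12.15 in 0.5 µM cells, against 14.60, 14.47 and 14.15 in vehicle cells. The digoxin arrays were nearly identical, far below the vehicle arrays, and the difference was -2.24 ± 0.26 (adjusted p = 4.775e-05). EEF2K, the kinase that inhibits elongation factor 2, fell by 1.14 (standard error 0.25) and lost its call without vehicle replicate 2 or 0.5 µM replicate 3 (adjusted p up to 0.0792). These were 2 of 29 translation factors tested, and none rose. None of 31 ribosomal protein genes and 26 genes of ribosome biogenesis passed by the median, while by median polish 1 rose and 2 fell of the first and 1 rose and 3 fell of the second. The probe sets of EIF5 did not move as one: 13 of 20 were lower on all digoxin arrays than on any vehicle array, 1 was higher without overlap and 6 overlapped, over a range of -3.56 to 1.68.

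Several leading genes showed the same unevenness more strongly. All 5 probe sets of IL11 were higher without overlap, by 2.18 to 3.27, and so were 13 of 15 of TXNIP and 12 of 22 of PER1. For HNRNPD, an RNA-binding protein of the splicing list, 4 of 19 probe sets were higher without overlap, by up to 3.80, and the median over probe sets was 0.02. MAX, the partner of MYC, had 4 of 15 higher, by up to 4.29, RHOQ, a small GTPase, 3 of 12, by up to 2.05, and ZNF511 2 of 9, by up to 3.46. The gene values of these 4 (1.66 for HNRNPD, 1.97 for MAX, 1.88 for RHOQ and 3.00 for ZNF511) rest on a few of their probe sets. By median polish they had 0.08, 0.19, 0.03 and 0.19, and none of the 4 passed. MAX also lost its call without 0.5 µM replicate 2 (adjusted p = 0.0656).

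**Figure D4:**
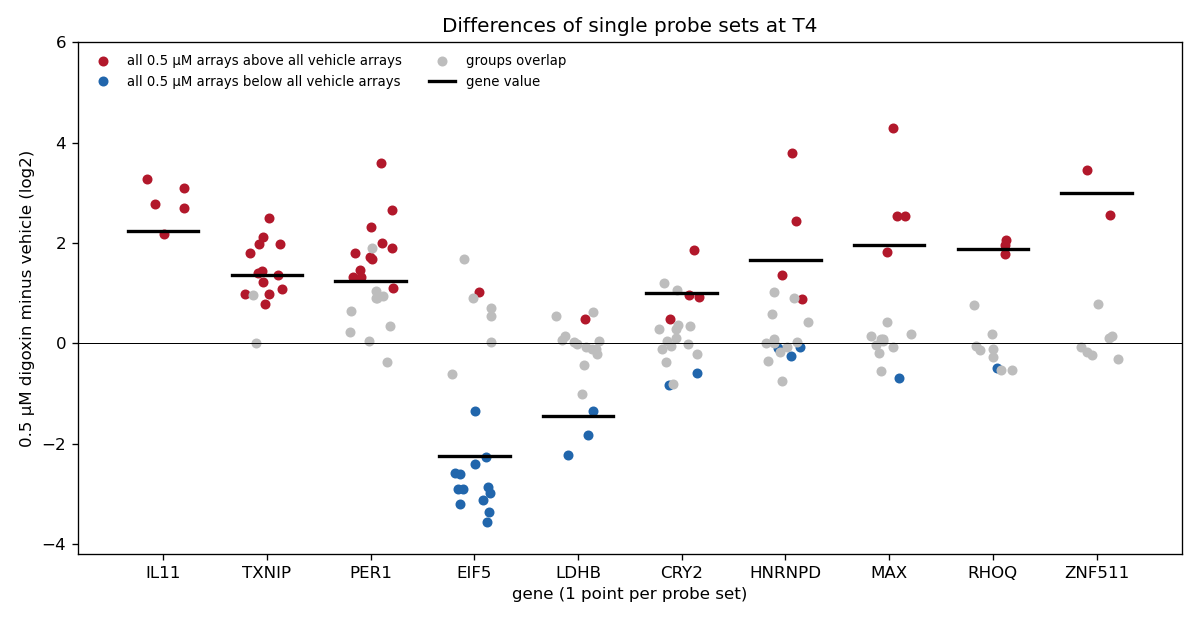
Each point is a probe set, with its log2 difference, 0.5 µM digoxin minus vehicle, on the vertical axis, red or blue where the 3 arrays of each group did not overlap, and black bars at the gene value. IL11 and TXNIP lie together above 0, while in HNRNPD, MAX, RHOQ and ZNF511 most points lie near 0 and a few reach 2.05 to 4.29.

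Among splicing genes, 4 of 29 tested rose by the median and none fell. CLK3 and CLK1, kinases that phosphorylate SR proteins, rose by 1.67 ± 0.19 and 1.35 ± 0.22. CLK3 read 14.04, 14.20 and 14.60 in 0.5 µM cells, against 12.53, 12.57 and 12.74 in vehicle cells, with no overlap. SRSF5, an SR protein, rose by 0.90 ± 0.17 by the median and had 0.38 by median polish (adjusted p = 0.069), and HNRNPD was the other. By median polish 4 splicing genes rose and 4 fell. Of 25 genes of mRNA decay 2 rose: ZFP36, the tristetraprolin that binds AU-rich elements, by 1.42 ± 0.17, and PNRC1, by 0.81 ± 0.20, which lost its call with any array but 0.5 µM replicate 1 left out (adjusted p up to 0.148). By median polish 6 genes of mRNA decay rose and none fell.

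Genes of the passage from G1 to S passed in both directions, 2 higher and 3 lower of 30. CDC25A, a phosphatase that activates cyclin-dependent kinases, read 12.14, 12.13 and 12.20 in 0.5 µM cells, against 11.15, 10.96 and 11.09 in vehicle cells, a difference of 1.09 ± 0.16. SKP2, the F-box protein that marks p27 for destruction, read 15.40, 15.11 and 15.32 in 0.5 µM cells, against 16.14, 16.18 and 16.16 in vehicle cells, a difference of -0.88 ± 0.13. Both genes had groups without overlap and kept their calls with every array left out. E2F1 rose by 0.99 ± 0.21, while MYC fell by 1.15 (standard error 0.23) and CDKN2C, an inhibitor of CDK4 and CDK6, by 1.11 (standard error 0.23). Calls were lost for E2F1 without vehicle replicate 3 or 0.5 µM replicate 3, for MYC without vehicle replicate 2 and for CDKN2C without vehicle replicate 1 or 2 or 0.5 µM replicate 2 (adjusted p up to 0.0758, 0.0522 and 0.063). None of 32 genes of G2 and mitosis passed, nor any of 12 histone genes, while by median polish 3 of the G2 and mitosis genes rose.

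Growth and matrix signals changed in single genes. CCN2, the connective tissue growth factor, rose by 1.09 ± 0.22 and ANKRD1, a cardiac ankyrin repeat protein, by 1.11 ± 0.27. Thus 2 of 14 YAP targets rose by the median, and 4 by median polish. CCN2 and ANKRD1 averaged more at T0 (18.70 and 11.28) than in 0.5 µM cells at T4 (14.68 and 6.71). Without vehicle replicate 1 CCN2 lost its call (adjusted p = 0.0677), and ANKRD1 kept it only without 0.5 µM replicate 1. Of 26 genes of TGF-beta and BMP signalling, TGFB2 rose by 0.77 ± 0.17 and ID1, an inhibitor of helix-loop-helix factors, fell by 1.19 (standard error 0.24). ID1 read 15.09, 15.22 and 14.78 in 0.5 µM cells, against 16.17, 16.35 and 16.14 in vehicle cells. TGFB2 lost its call without vehicle replicate 1 or 0.5 µM replicate 1 (adjusted p up to 0.0783). Of 17 tested Wnt genes 1 fell and none rose by the median, with a median difference of 0.23, while by median polish 4 rose and none fell (ZNRF3, LRP5, AXIN1 and WNT5B). The gene that fell was FZD2, a Wnt receptor, which fell by 0.76 by the median, had -0.32 by median polish (adjusted p = 0.285) and kept its call only without 0.5 µM replicate 3 (adjusted p up to 0.167 otherwise). None of 30 collagen and matrix genes and none of 8 EGF receptor genes passed by the median, while by median polish 4 of the first list were lower, COL1A1, COL1A2, COL6A3 and PLAU, and 2 of the second were higher, the ligand EREG by 0.89 and the protease ADAM17 by 0.35. Of the Kruppel-like factors, KLF11 rose by 1.44 ± 0.20 beside KLF9, 2 of 12 tested. By median polish 4 of these factors rose and 1 fell, and KLF5 had 1.35 (adjusted p = 2.662e-05).

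By the median of probe sets 3.7% of the ATF4 list, 7.14% of the BCL2 family and 8.7% of the p53 targets passed, against 2.47% of all tested genes. PPP1R15A, which brings the phosphatase to eIF2 alpha, was the single gene of 27 in the ATF4 list to pass, with 13.75, 14.00 and 13.72 in 0.5 µM cells, against 12.19, 12.89 and 12.31 in vehicle cells. Its groups did not overlap, and its difference was 1.36 ± 0.22. DDIT3 (-0.16 ± 0.29) and ASNS (0.12 ± 0.24) did not pass. PMAIP1, the NOXA protein of cell death, rose by 1.21 ± 0.20 and was the single gene of 14 in the BCL2 family to pass, and with GADD45B it made up the 2 of 23 p53 targets that did. None passed of 20 genes of the unfolded protein response, 13 heat shock genes, 21 interferon response genes and 10 metallothionein and zinc genes. The same held for 16 NRF2 genes, 26 of oxidative phosphorylation, 26 of autophagy and lysosome and 12 of fatty acid synthesis. At a share of 2.47%, a list of this size can hold no passing gene, so these counts do not set the lists apart. More passed by median polish: 3 genes of the ATF4 list rose and 2 fell, 4 p53 targets rose and 2 fell, and 2 BCL2 family genes rose. Among them GDF15 had 1.72 (adjusted p = 1.304e-05) and CHAC1 -0.84 (adjusted p = 0.0019). By median polish 2 NRF2 genes, 2 of autophagy and lysosome and 1 each of heat shock, metallothionein and fatty acid synthesis rose, 1 interferon response gene fell, and 1 rose and 1 fell of the unfolded protein response. Of 27 ubiquitin ligase genes, SMURF1 rose by 0.89 ± 0.15, and NHLRC1 fell by 1.07 (standard error 0.21) beside SKP2, while by median polish 3 rose and 3 fell.

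**Figure D5:**
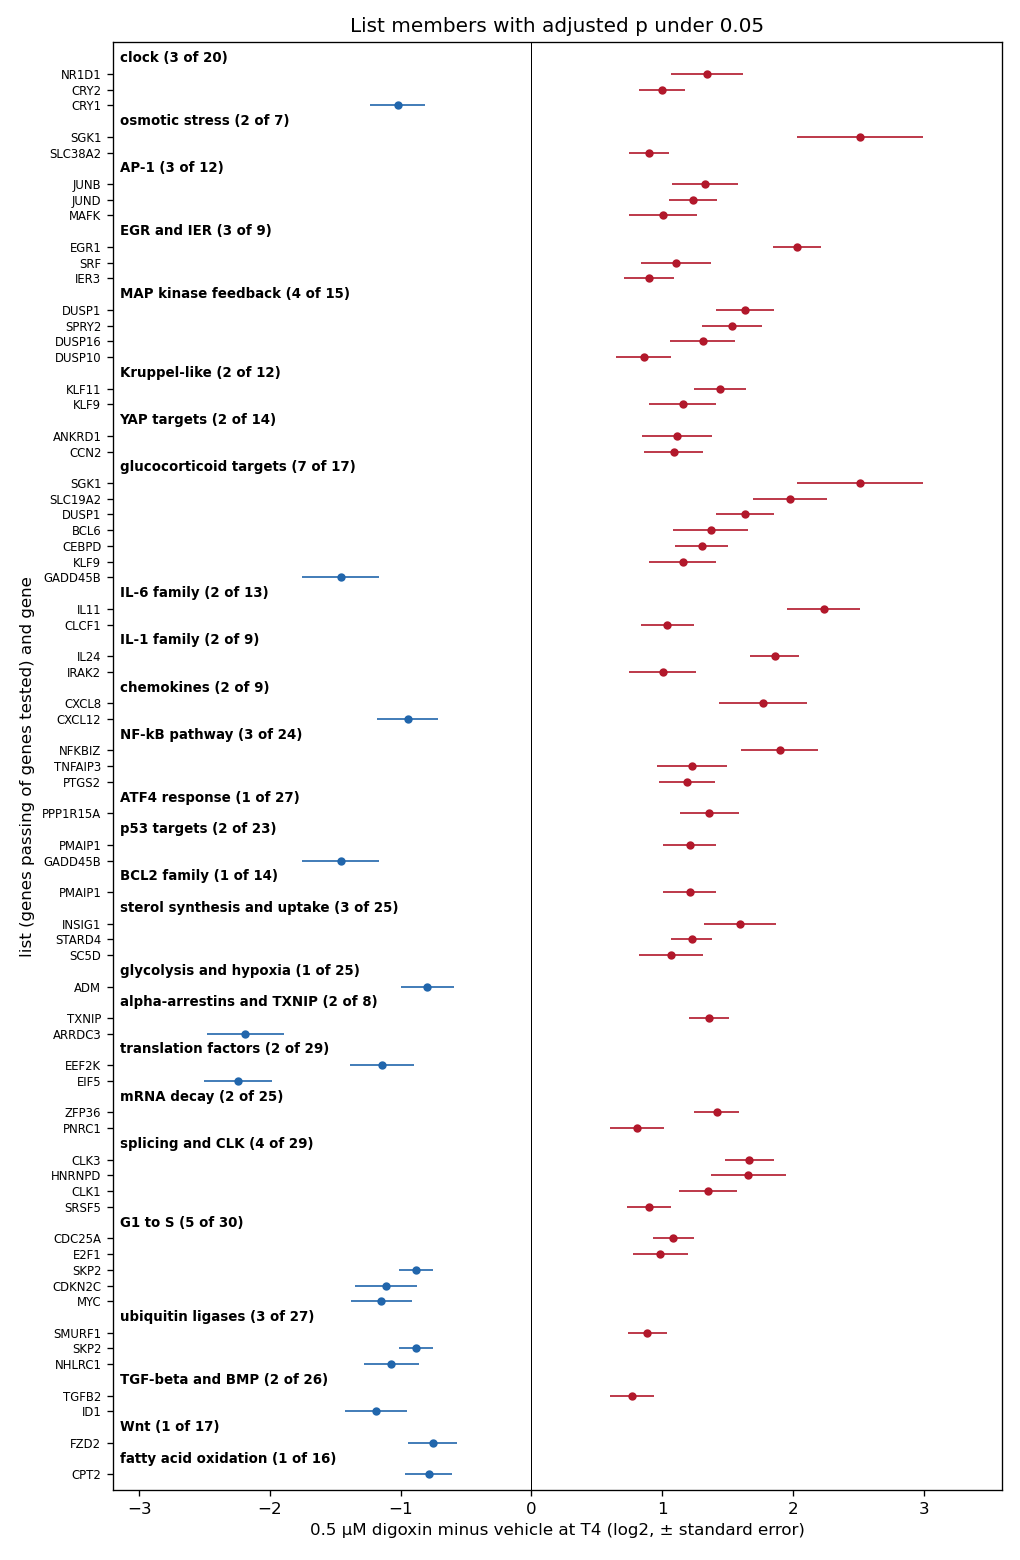
Points are the genes with adjusted p under 0.05 in each list and bars are standard errors, on a horizontal axis of the log2 difference, 0.5 µM digoxin minus vehicle, with the number that passed of those tested beside each list. Of the glucocorticoid list 7 of 17 passed, 6 of them to the right of 0.

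The remaining named falls were genes of varied function. TRPM7, a channel and kinase that carries magnesium, read 10.99, 11.11 and 10.47 in 0.5 µM cells, against 12.44, 12.63 and 12.30 in vehicle cells, a difference of -1.60 ± 0.21. MOCS2, of molybdenum cofactor synthesis, read 13.79, 13.24 and 13.49 in 0.5 µM cells, against 15.16, 14.88 and 15.27 in vehicle cells, and FAM13B 9.90, 9.68 and 9.38 in 0.5 µM cells, against 11.34, 10.78 and 11.46 in vehicle cells. None of these groups overlapped, and all 22 probe sets of FAM13B were lower. RWDD2B and FPGT, which salvages fucose, fell by 1.64 and 1.45. RCOR3, a corepressor, fell by 1.42 and lost its call without vehicle replicate 2 or 3 or 0.5 µM replicate 1 or 3 (adjusted p up to 0.163), and PEX11A, a peroxisome protein, fell by 1.41 and lost it without vehicle replicate 2 (adjusted p = 0.0604). NBPF1 fell by 1.72, but this gene has near-identical copies that share probes, so its value is uncertain. Of 396 tested genes with ZNF symbols, a set chosen after the values were seen, 12 fell and 2 rose, with a median of -0.14. Over all 11911 tested genes 129 (1.08%) fell and 165 (1.39%) rose, with a median of 0.02. The difference between the set and all genes was not tested. Among those with 3 or more probe sets, as the naming rule asks, ZNF429, ZNF253 and ZNF30 had the largest falls, at -1.65, -1.50 and -1.43, and each lost its call with single arrays left out. For ZNF429 these were all but vehicle replicate 1, for ZNF253 vehicle replicate 1 or 2 or 0.5 µM replicate 2, and for ZNF30 vehicle replicate 3 or 0.5 µM replicate 1 or 3 (adjusted p up to 0.225, 0.125 and 0.11). ZNF429 also lost its call by median polish (-0.98, adjusted p = 0.202).

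The remaining named rises were SLC19A2, MAX and RHOQ above and ZBTB43, EGFL8 and ST3GAL1. ST3GAL1, a sialyltransferase, read 8.79, 8.51 and 8.77 in 0.5 µM cells, against 7.22, 7.11 and 6.70 in vehicle cells, a difference of 1.68 ± 0.31 with no overlap. ZBTB43, a zinc finger protein, rose by 1.78 ± 0.37 and lost its call without vehicle replicate 3 or 0.5 µM replicate 2 (adjusted p up to 0.0693). EGFL8, with 3 probe sets, rose by 1.71 ± 0.43 and lost its call by median polish (0.59, adjusted p = 0.414) and with any array but vehicle replicate 2 left out (adjusted p up to 0.185).

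The higher dose of the same time, 5 µM, was set against 0.5 µM, so this and the comparison with vehicle both use the 0.5 µM arrays. Of the 11911 genes, 4 (0.0336%) passed, 3 higher (0.0252%) and 1 lower (0.0084%) at 5 µM, and 960 had an unadjusted p under 0.05. IL6 averaged 8.82 ± 0.18 with vehicle, 8.75 ± 0.19 with 0.5 µM and 10.38 ± 0.31 with 5 µM (SD, n = 3 each), and was higher at 5 than at 0.5 µM by 1.63 ± 0.19 (adjusted p = 0.00032). By median polish this difference was 0.77 (adjusted p = 0.0276). H2BC21, a histone gene whose transcripts are polyadenylated, averaged 8.63, 9.28 and 10.71 at vehicle, 0.5 and 5 µM, and PRLR, the prolactin receptor, 5.92, 6.23 and 4.94. H2BC21 was higher at 5 µM by 1.43 ± 0.22 (adjusted p = 0.015) and PRLR was lower (-1.29 ± 0.20, adjusted p = 0.016). PRLR was above the filter of 6.02 by its 0.5 µM mean and below it with vehicle and with 5 µM, and a stricter filter left it out, so the size of its difference is uncertain. VTRNA1-1, a vault RNA with 1 probe set that the naming rule leaves out and that is named after its value was seen, was higher by 2.48 ± 0.41 (adjusted p = 0.022). Without any 0.5 µM replicate or without 5 µM replicate 2, 1 gene passed. H2BC21 lost its call in each of these cases and PRLR with any of the 6 arrays left out (adjusted p up to 0.118 and 0.181), and H2BC21 had 0.37 by median polish (adjusted p = 0.513).

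For the 30 genes with the leading changes at 0.5 µM, no further difference at 5 µM passed, though several were 2 or more standard errors. EGR1 averaged 13.09 with vehicle, 15.12 with 0.5 µM and 16.11 with 5 µM, a difference between the doses of 0.99 ± 0.18 (adjusted p = 0.0638). CXCL8 averaged 10.64, 12.42 and 13.30, a difference of 0.88 ± 0.33 (adjusted p = 0.456), and IL11 11.15, 13.39 and 13.57, a difference of 0.18 ± 0.28 (adjusted p = 0.919). EIF5 averaged 14.40, 12.16 and 11.82, a difference of -0.34 ± 0.26, ARRDC3 11.54, 9.35 and 9.55, one of 0.20 ± 0.30, and TRPM7 12.46, 10.86 and 10.84, one of -0.02 ± 0.21. EGR1 came closest to passing among the leading rises, and for these genes a p that missed the threshold does not show that the doses acted alike.

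The effect of 0.5 µM at T20, against the vehicle of T20, was set against the effect at T4, and the 2 effects share no array. No gene passed (0 of 11911, limma). Of these genes 614 had an unadjusted p under 0.05, about as many as that threshold gives where no gene differs. The median standard error of the difference between the effects was 0.37, against 0.26 for the effect at T4 alone. Without vehicle replicate 1 or 3 of T4, 2 and 1 genes passed, and without vehicle replicate 1 or 2 of T20, 1 and 3. EGR1 averaged 16.70 in 0.5 µM cells and 13.54 in vehicle cells at T20, and its effect there was larger by 1.13 ± 0.26 (adjusted p = 0.302). SGK1 averaged 11.56 in 0.5 µM cells and 7.24 in vehicle cells at T20, a larger effect by 1.81 ± 0.68 (adjusted p = 0.887). RGCC averaged 8.63 in 0.5 µM cells and 8.54 in vehicle cells at T20, and the difference of its effects, T20 minus T4, was -1.95 ± 0.31 (adjusted p = 0.0558). RGCC came closest to passing among the named genes, and whether its effect differs between the times is not settled by these arrays. IL11 averaged 13.06 in 0.5 µM cells and 10.78 in vehicle cells at T20, and the effects differed by 0.04 ± 0.39.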

How the data were processed

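The deposited values are log2 levels that the authors obtained by Robust Multi-array Average in GIANT, a set of Galaxy tools, as the design text of the series states, and limma is named there too. The sources used here give no versions, background method or genome build. Array medians over 352859 probe sets ran between 6.25 and 6.38, and arrays were quantile normalized for this work. Of the probe sets, 259224 had 1 symbol in the platform annotation and were used, 13116 had several and 80519 no listed symbol. After 1726 older symbols were updated, 22260 genes (22195 in RefSeq) had a median of 10 probe sets. A gene was tested when its highest group mean reached 6.02, which is the median over genes and arrays (11911 genes, 53.5%).

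The test was that of limma (3.58.1, under R 4.3.3), fitted to all 8 groups together (lmFit, then eBayes; 24 arrays, 16 residual degrees of freedom), two-sided, with Benjamini-Hochberg adjustment over all tested genes. Replicates correlated across genes at 0.985 to 0.988 and 0.5 µM with vehicle arrays at 0.979 to 0.983. The number of arrays limits the precision. On simulated data of the comparison with vehicle (11911 genes), 8%, 42% and 92% of changes of 0.5, 1 and 2 (log2) were recovered, with 7.14% false among 126 calls. Named genes were the 15 largest rises and 15 largest falls that passed, did not overlap and had 3 or more probe sets, up to 6 each for the other comparisons, passing list members (up to 8 a list) and all tested clock and pump genes, and small RNA, antisense and unnamed loci were passed over. The members and lists were chosen with earlier results of these data known. The alternatives are listed with their effects in the closing section, and the list counts by median polish were added after seeing the data. Same-numbered arrays of 0.5 µM and vehicle had correlated deviations of 0.02, 0.11 and 0.03, so the numbers were not taken to pair them.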

Additional observations from a re-analysis of the deposited data

How the results depend on the processing

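For 0.5 µM against vehicle (294 genes), 1148 passed by median polish (245 shared), 966 by the mean of probe sets, 195 with no filter on low values, 192 scaled to poly-A controls, 99 in a fit of only the groups compared and 22 against a minimum change of 0.5, and 163 to 194 with an array left out. By the first 2 the standard errors were smaller, with a median of 0.14 by median polish against 0.26. For 5 against 0.5 µM (4 genes), 52 passed by median polish (16 higher, 36 lower), 22 by the mean, 27 with array weights, 1 against the minimum change, 0 with only the groups compared (limma) and 1 to 3 with an array left out. For the effect at T20 minus that at T4 (0 genes), 2 passed by cyclic loess, 1 by median polish, 2 with a stricter filter, 1 with 3 or more probe sets, 5 with eBayes trend and robust and 0 to 3 with an array left out. A replicate block gave 284, 4 and 0, and the numbers are not shown to pair the arrays. ATP1B3 had -0.12 by the median, 0.45 by the mean of probe sets and 0.20 by median polish (adjusted p = 0.175). Of 79 passing named genes, 47 kept their call with every array left out and 67 by median polish. Of the same 79, 13 lost their call with no filter on low values and 39 with only the groups compared. The causes were not tested beyond these values. Signal near the array's floor limits low genes such as NR1D1 and CRY2.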
